A study of Mus musculus with 5 samples.

Results

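The genes described here carried 20 or more CCT3 eCLIP peaks each and form a set of 25 genes out of 1221 with at least 1 CCT3 peak. A peak was counted for a gene when its table row gave that gene's symbol and the peak lay wholly between the listed start and end of the gene. The limit of 20 peaks was met by 30 of the 1221 symbols (2.46%). From these, Dst, Wwox and the zinc finger genes Zfp963, Zkscan1 and Zfp62 were left out by name, with 69, 42, 26, 25 and 20 peaks. The genes were chosen by their number of CCT3 peaks, so the peak numbers, classes and folds that follow are descriptions, and no test was made on them.

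The series comprised eCLIP of CCT3 (2 samples, titled CCT3 and CCT3-2), eCLIP of PABPC1 (1 sample), and 1 input library for each protein, all from GC-2spd(ts), an immortalised mouse line labelled as spermatocyte cells. The labels name no treatment or genotype, and the CCT3 and CCT3-2 samples carry the same library name, and whether they are separate libraries is not stated, so the CCT3-2 list serves as a check and is not counted as an independent replicate. The CCT3, CCT3-2 and PABPC1 lists held 10916, 18650 and 14092 peaks, and no read totals come with them, which leaves the sequencing depth unknown. The log2 fold over input and the −log10 p of each peak are the authors' values, and −log10 p stops at 400. Of 15 meiotic spermatocyte markers, none had a CCT3 or a CCT3-2 peak inside it and 6 had a PABPC1 peak, while of 12 fibroblast markers the counts were 0, 0 and 1. A peak list does not measure expression, so these counts do not identify the cells.

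In eCLIP, RNA is crosslinked to protein in cells, trimmed with RNase, pulled down with an antibody and sequenced beside an input library, and a peak is a stretch with more reads in the pulldown than in the input. CCT3 is a subunit of TRiC/CCT, the ring-shaped cytosolic chaperonin that folds actin, tubulin and many other proteins, and it is not a classical RNA-binding protein. Mouse genes differ widely in how their sequence is divided. Some hold most of their coding sequence in 1 long exon, whereas others have many short exons spread between long introns.

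Amer1, which encodes an APC-binding inhibitor of Wnt signalling, had the most peaks of the set, with 38 in the CCT3 list and 62 in the CCT3-2 list. Spidr, a scaffold of homologous recombination repair, followed with 32 and 47. Flrt1, a transmembrane adhesion protein gene, had 31 and 53, the histone methyltransferase gene Ash1l 30 and 50, and Irs1, the adaptor of the insulin receptor, 30 and 38. The DNA-binding regulator gene Arid5b had 29 and 48, the transposon-derived transcription factor gene Zbed6 29 and 84, and Rbm15, an adaptor of the m6A methyltransferase complex, 28 and 57. Zfhx4 had 27 CCT3 peaks, and Fem1a, Snx33 and Ulbp1 had 25 each. Trim56 had 24, Ergic1 and Resf1 23, Dync2h1, Filip1l, Luzp1 and Smcr8 22, and Pcdh15 21. The genes just inside the limit were Cep57l1, Epm2aip1, Katnal1, Mroh1 and Rmi2, with 20 peaks each. Those just outside it were Dnmbp, Helz2, Kif24, Map4, Mast2, Trim30d and Zfpm2 with 19, followed by 3300002I08Rik, Mrps6, Tigd2 and Vgll3 with 18. All 25 genes are protein-coding and lie on 13 chromosomes, 4 of them on chromosome 10. Together they held 628 of the 5253 CCT3 peaks that lay inside their listed gene (12.0%), whereas the other symbols had a median of 2 peaks and 442 of them had 1.

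**Figure D1:**
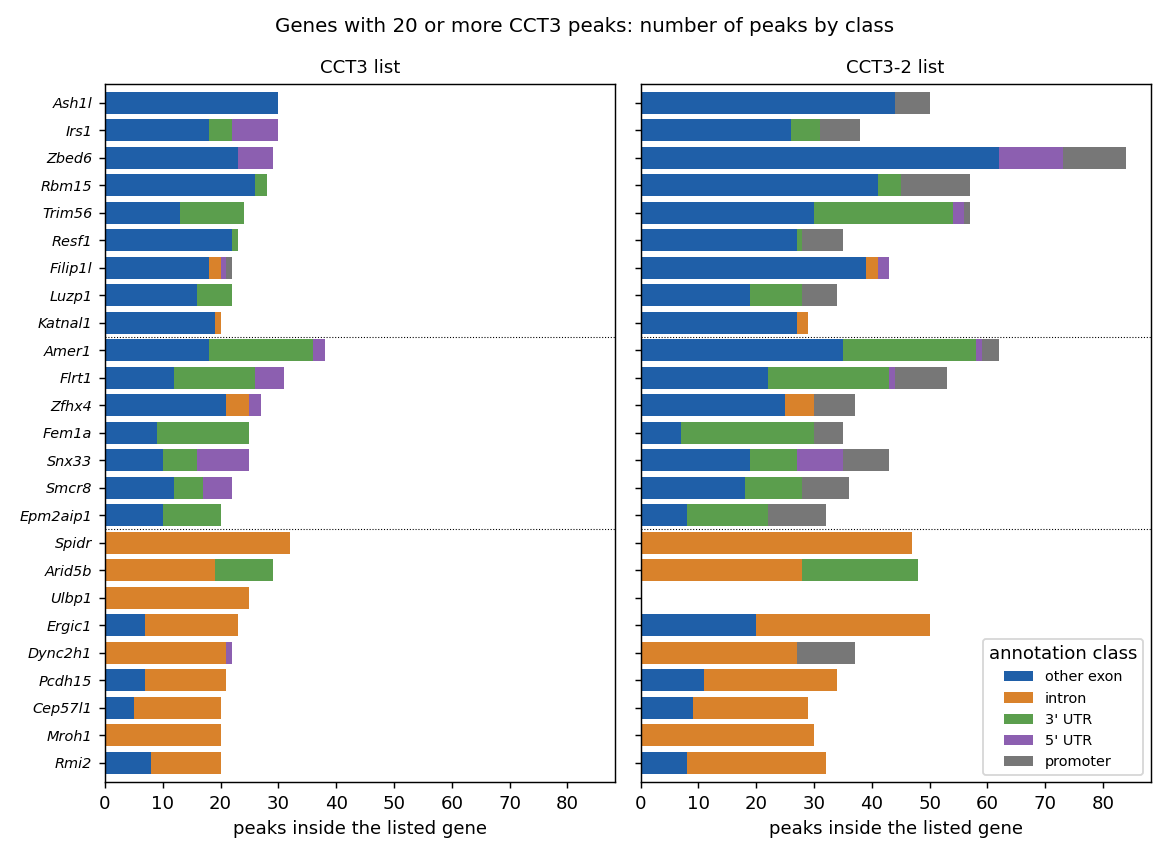
Number of peaks inside each of the 25 genes in the CCT3 list (left) and the CCT3-2 list (right), coloured by the deposited annotation class, with 1 list per panel. Dotted lines part, from the top, the 9 genes with most peaks labelled as 1 exon, the 7 with neither pattern and the 9 with most peaks in introns. Peaks labelled as UTR count for no exon. Zbed6 reached 84 CCT3-2 peaks and Ulbp1 had none in the list used here.

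In the CCT3 list, the 628 peaks were spread over annotation classes much like the remaining inside peaks, which did not hold in the CCT3-2 list described further on. Coding or noncoding exons outside UTRs, called other exons here, held 48.4% of them (Wilson 95% interval 44.5 to 52.3%, 304 peaks), against 51.8% of the other 4625 inside peaks (50.4 to 53.3%). Introns held 28.8% (25.4 to 32.5%, 181 peaks), against 29.1% (27.9 to 30.5%). The 3′ UTR share was 16.4% (13.7 to 19.5%, 103 peaks), against 13.8% (12.8 to 14.8%). The 5′ UTR share was 6.21% (4.58 to 8.38%, 39 peaks), against 5.15% (4.55 to 5.82%), and 1 peak, in Filip1l, was in the promoter class. The intervals overlap for each of these 4 classes. Among the 85 genes with 10 to 19 peaks, introns held 37.4% (34.6 to 40.3%) and 3′ UTRs 9.33% (7.76 to 11.2%), a higher and a lower share than in the 25 genes. Intervals cover counting error only, and peaks of the same gene are not independent.

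**Figure D2:**
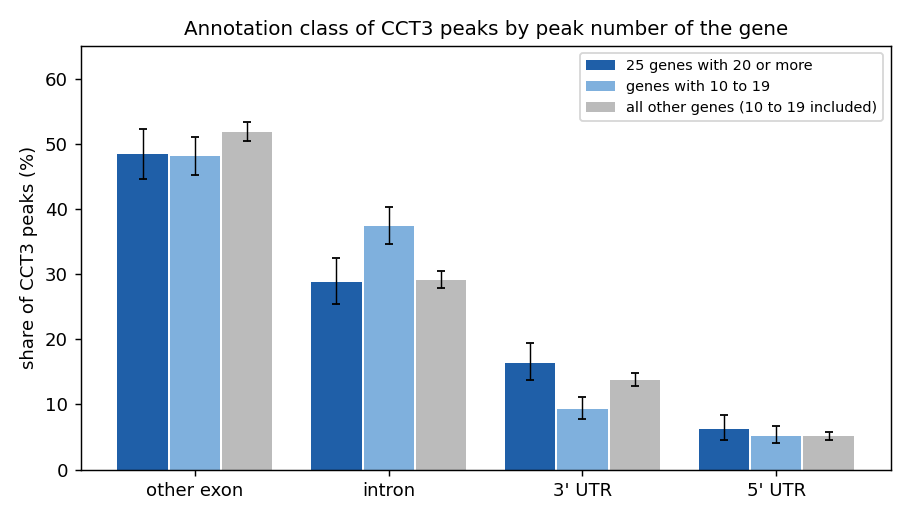
Share of CCT3 peaks (%) in each annotation class for the 25 genes, for the 85 genes with 10 to 19 peaks and for all genes outside the 25, with Wilson 95% intervals as error bars. Other exons hold 48.4% and introns 28.8% of the peaks in the 25 genes, and the intron share is highest, at 37.4%, in the genes with 10 to 19 peaks.

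Gene by gene, the mixture separated. In 9 of the 25 genes over 50% of the peaks carried the label of a single exon, in another 9 over 50% were intronic, and in the remaining 7 neither held. A UTR label names no exon, so peaks labelled as UTR were not counted for any exon. The 9 can therefore leave out genes with many peaks in the UTR part of an exon. In 13 genes no peak was intronic, and in 3 genes (Spidr, Ulbp1 and Mroh1) every peak was. In all 3 patterns the peaks stood close together. With peaks joined into a run wherever the gap was 500 bases or less, the longest run had a median length of 3088 bases over the 25 genes (range 1338 to 4472) and held over 50% of the peaks in 20 of them. The median longest run was 2752 bases in the 9 genes with most peaks in 1 exon, 3169 bases in the 9 intronic genes and 3088 bases in the other 7, while the listed gene spans had medians of 10564, 57899 and 11179 bases. Peaks covered a median of 40.6% of the longest run (23.4 to 61.2%). No such patterns, runs or coverage are given for the other genes with CCT3 peaks, so these values do not set the 25 genes apart.

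**Figure D3:**
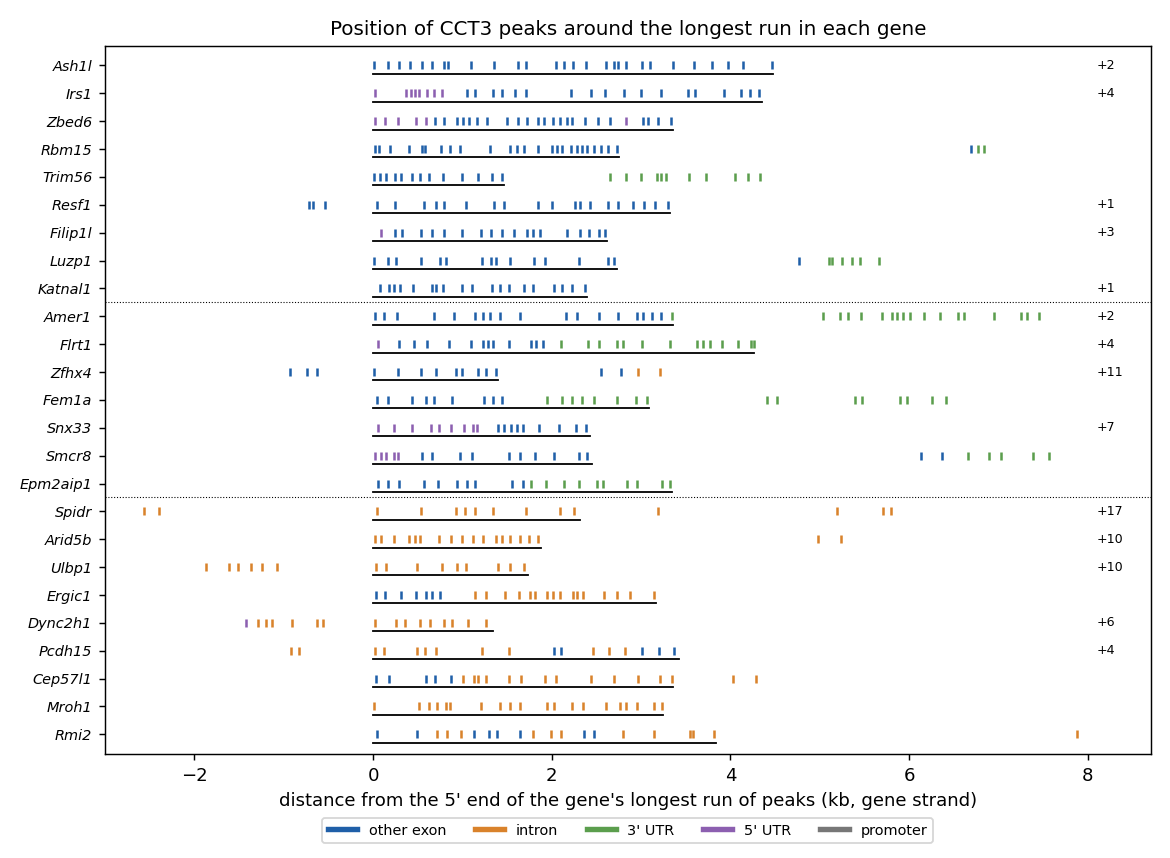
Middle of each CCT3 peak (tick) in the 25 genes, in kb from the 5′ end of the gene's longest run along the gene's strand, coloured by annotation class; the black line under each row is the longest run, and the number at the right counts peaks outside the window of −3 to 8 kb. The runs are 1465 to 4472 bases long in the upper (1 exon) genes and 1399 to 4268 in the middle (neither) genes. In the lower (intron) genes they are 1338 to 3838 bases long. Spidr has the most peaks outside the window, 17.

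Among the genes with most peaks in 1 exon, Ash1l was the clearest case of a long internal exon. Ash1l encodes an enzyme that methylates lysine on histone H3. Of its 30 peaks, 28 (93.3%) carried the label of exon 3 of 28, spread over 4472 bases at 88981258 to 88985729 on chromosome 3, and the other 2 were in exon 2. In the CCT3-2 list 44 of its 50 peaks were in other exons and 6 in the promoter class. Resf1, which encodes a factor that silences endogenous retroviral elements in mouse stem cells, had 17 of 23 peaks in exon 3 of 5 over 2787 bases. Luzp1, a leucine zipper protein gene of the actin cytoskeleton and centrosome, had 15 of 22 in exon 4 of 5 over 2730 bases and 6 in its 3′ UTR. In these 3 genes most peaks stood in an exon that was neither the first nor the last of the labelled transcript.

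Other genes of this pattern had the peaks in a first or last exon. Rbm15 had 25 of its 28 peaks in exon 1 of 2, over 2752 bases at 107330246 to 107332997 on chromosome 3. Peaks covered 56.3% of that stretch, and 5 of them had a −log10 p at the limit of 400. Irs1 had 18 of 30 peaks in exon 1 of 2 and 8 in its 5′ UTR, and together these 26 peaks made a run of 4349 bases. The other 4 Irs1 peaks were in the 3′ UTR, beyond a gap of 49449 bases. Trim56, an E3 ubiquitin ligase gene of antiviral defence, had 13 of 24 peaks in exon 3 of 3 over 1465 bases and 11 in its 3′ UTR. Its peak of highest fold, at 137113282 to 137113538 on chromosome 5, had a log2 fold of 6.13 and reached the p limit of 400.

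Filip1l, which encodes a filamin-interacting protein, had 18 of 22 peaks in exon 5 of 5, over 2417 bases. It also had the only promoter-class peak of the set, at the start of the transcript. This peak, of 50 bases at 57549242 to 57549291 on chromosome 16, reached a log2 fold of 3.15 with a −log10 p of 7.65, and no CCT3-2 peak overlapped it. It is shown because it begins on the first base of the listed transcript, and 70.0% of its bases are G or C. The stretch of 30 bases over its 5′ edge at chr16:57549227-57549256, plus strand, taken from RefSeq (GRCm38.p6, the build of the tables), has the 15 bases inside the peak in capitals.
Filip1l: cggcgtcccgctcgcATTGTTCGGGAGGCT

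In the last genes of this pattern, Zbed6 and Katnal1, the exon labels named another gene. Zbed6 lies inside Zc3h11a on the same strand, and 23 of its 29 peaks were labelled as exon 1 of 17 of Zc3h11a (gene ID 70579), with the other 6 as 5′ UTR. All 29 lay within the RefSeq span of Zbed6, in a single run of 3357 bases at 133656887 to 133660243 on chromosome 1. They covered 61.2% of it, the highest coverage of the 25 longest runs, and 5 of them reached the p limit. Katnal1 encodes a microtubule-severing katanin subunit that acts in Sertoli cells of the mouse testis. Of the 20 peaks listed under it, 19 were labelled as exon 2 of 2 of the long noncoding RNA gene 5930430L01Rik, and all 20 also lay within the long noncoding RNA gene Gm15411. None lay within the RefSeq span of Katnal1, and the transcript listed for it extends further upstream than that span.

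In most of the 7 genes with neither pattern, the peak labels passed from exon to UTR. UTRs are themselves parts of exons, so this group rests on the labels and does not show that the peaks left the exon. Amer1 had 18 peaks labelled as exon 2 of 2, 18 as 3′ UTR and 2 as 5′ UTR. Its longest run, at 95425033 to 95428390 on chromosome X, held 19 peaks, and the peak of highest fold, 6.46, lay in it at 95425762 to 95425957. The Amer1 peaks labelled as exon had a median log2 fold of 4.96, and those labelled as 3′ UTR 4.17. Flrt1 had 12 peaks labelled as exon 2 of 2, 14 as 3′ UTR and 5 as 5′ UTR. Of its 31 peaks, 27 formed a run of 4268 bases. The highest Flrt1 peak, at 7.06, was a 3′ UTR peak.

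Fem1a, a substrate receptor gene of the CUL2 ubiquitin ligase, had 9 peaks labelled as exon 1 of 1 and 16 as 3′ UTR. The labelled transcript has only 1 exon, so its 3′ UTR is part of that exon. Fem1a is therefore in this group by its labels only. Epm2aip1, which encodes a partner of the laforin phosphatase, had 10 peaks labelled as exon and 10 as 3′ UTR, and all 20 formed a run of 3348 bases. Snx33, a sorting nexin gene of endocytosis, had 9 peaks in its 5′ UTR, 9 in exon 1 of 2, 1 in exon 2 and 6 in its 3′ UTR. Smcr8, a partner of C9ORF72 in autophagy, had 10 peaks labelled as exon 1 of 1, 2 in exon 2 of 2, and 5 in each UTR. Zfhx4, a zinc finger homeodomain gene, was the most dispersed of the 7, with 12 peaks in exon 2 of 11, 7 in exon 10, 2 in exon 3, 4 in an intron and 2 in the 5′ UTR. Counting exon and UTR peaks of 1 run together, which was chosen after seeing the data, 14 of the 25 genes had over 50% of their peaks in such a run, 5 of them among these 7.

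Among the intronic genes, Mroh1, Arid5b, Ergic1, Cep57l1, Pcdh15 and Rmi2 each had all of their intronic peaks labelled as a single intron. Mroh1, which encodes a HEAT repeat protein, had all 20 peaks in intron 7 of 31, in a run of 3246 bases at 76403623 to 76406868 on chromosome 15, while the listed transcript spans 49714 bases. Arid5b encodes an AT-rich interaction domain protein that works with the histone demethylase PHF2. It had 19 of 29 peaks in intron 5 of 9, of which 17 formed a run of 1884 bases at 68132636 to 68134519 on chromosome 10. Peaks covered 56.6% of this run. The other 10 Arid5b peaks were in the 3′ UTR. The intronic peaks had a median log2 fold of 5.72 and a highest of 7.56, the highest of the set, whereas the 3′ UTR peaks had a median of 3.38.

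Spidr and Ulbp1 were wholly intronic but spread over more than 1 intron. Spidr had 18 peaks in intron 3 of 19, 12 in intron 5 and 2 in intron 8, over 112708 bases, and its longest run held 9 of the 32 peaks. Ulbp1, which encodes a ligand of the NKG2D receptor of natural killer cells, had 16 peaks in intron 1 of 4 and 9 in intron 2, with a highest log2 fold of 7.03. Cep57l1, a centrosomal protein gene, had 15 of 20 peaks in intron 1 of 11 and 5 in the second exon of another transcript, and 18 of them formed a run of 3355 bases. Its highest log2 fold, 7.15, was at 41799606 to 41799682 on chromosome 10. Ergic1, a gene of transport between endoplasmic reticulum and Golgi, had 16 of 23 peaks in the last intron of a listed transcript and 7 in the last exon of another, in 1 run of 3169 bases. All 23 Ergic1 peaks also lay within the long noncoding RNA gene Gm41553.

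Rmi2, Pcdh15 and Dync2h1 carried intronic peaks whose gene is less certain. Rmi2 encodes a subunit of the BLM helicase complex. Of its 20 peaks 12 were labelled as intron 1 of 5, the other 8 as exons 41 to 45 of 46 of the long noncoding RNA gene Gm21859 (gene ID 545180), and none lay within the RefSeq span of Rmi2. The Gm21859 exon numbers rose as the coordinates fell, the order of a minus-strand transcript. All 32 Rmi2 peaks in the CCT3-2 list were on the plus strand, that of Rmi2. Which transcript the peaks belong to was not tested. Pcdh15 is a cadherin gene of the inner ear hair cell. Of its 21 peaks 14 were labelled as intron 1 of 13 and 7 as exons of transcripts without a gene ID. For the transcript with 4 exons, the peaks labelled exon 4 began at 73282636 and those labelled exon 3 at 73283624. That is the order of a transcript on the minus strand. All 34 Pcdh15 peaks in the CCT3-2 list, whose table gives a strand, were on the minus strand, opposite to the gene.

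Dync2h1 encodes the motor of retrograde transport in cilia. It had 15 of 22 peaks in intron 1 of 89, 6 in intron 18 of 88 and 1 in the 5′ UTR. Of these 22, 16 overlapped Dcun1d5, a gene on the opposite strand, and 6 lay within the RefSeq span of Dync2h1. All 37 CCT3-2 peaks listed inside Dync2h1 were on its own minus strand. The 5′ UTR peak, of 105 bases at 7184310 to 7184414 on chromosome 9 with a log2 fold of 3.95, is shown because it lies just downstream of the listed start of Dync2h1 and just upstream of an annotated start of Dcun1d5. It was overlapped by a CCT3-2 peak, and 53.3% of its bases are G or C. The 30 bases over its 5′ edge at chr9:7184400-7184429, minus strand, from RefSeq (GRCm38.p6), have the 15 bases inside the peak in capitals.
Dync2h1: ctgaatctccggagaTTTTCTGGCGGGTTT

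The folds of single peaks overlapped widely between genes. Over the 628 peaks the median log2 fold was 4.36 (interquartile range 3.80 to 4.997), against 4.05 (3.53 to 4.65) for the other inside peaks. The median −log10 p was 15.02, against 7.27, and the median width was 53 bases, against 58 bases. Intronic peaks of the 25 genes had a median log2 fold of 4.74, 5′ UTR peaks 4.66, other exon peaks 4.25 and 3′ UTR peaks 4.12. The 5′ UTR median rests on 39 peaks in 9 genes, whose own 5′ UTR medians ran from 3.51 in Zfhx4 to 5.60 in Zbed6. In the remaining genes intronic peaks also had the highest median of these classes, 4.31, followed by other exons at 3.97, 3′ UTRs at 3.85 and 5′ UTRs at 3.82. Gene medians ran from 3.63 in Luzp1 to 5.18 in Zbed6. In each of the 9 intronic genes the median lay between 4.47 and 4.95. In the 9 genes with most peaks in 1 exon it lay between 3.63 and 5.18, with Zbed6 and Rbm15 (5.07) above the rest.

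**Figure D4:**
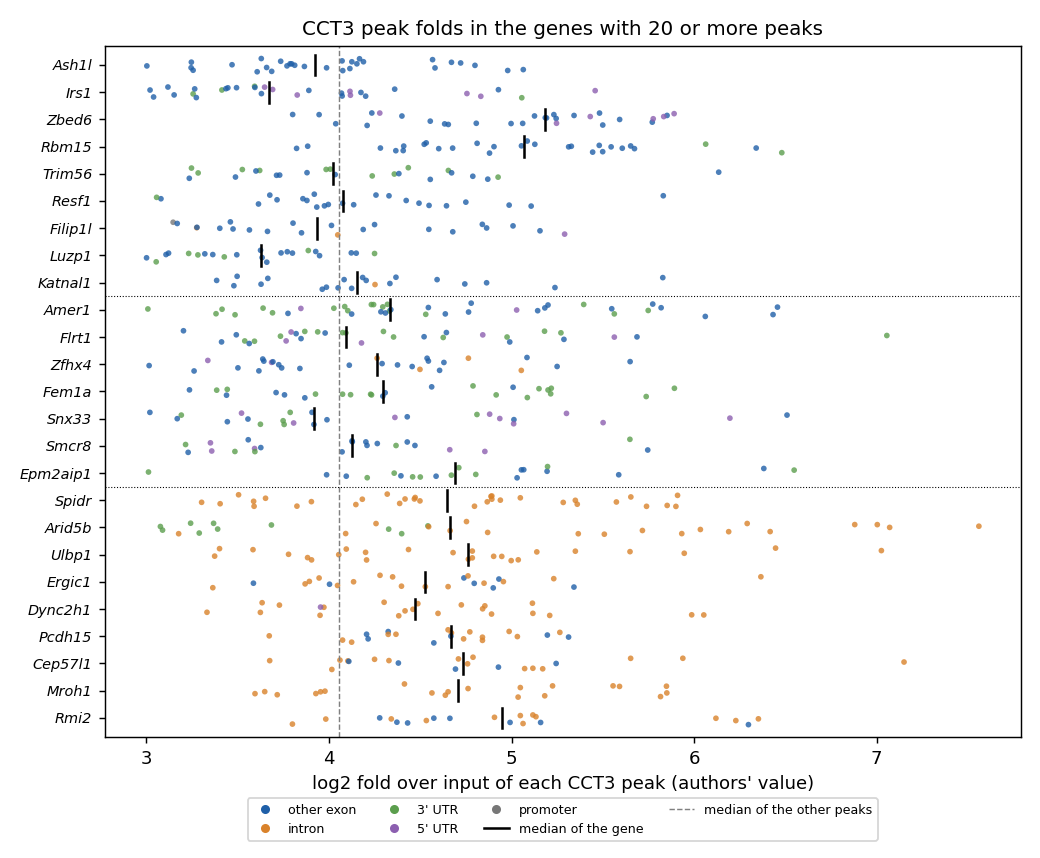
Authors' log2 fold over input of every CCT3 peak (points, coloured by annotation class) in the 25 genes, with the median of each gene (black bar) and the median of all other inside peaks, 4.05 (dashed line). The 9 intronic genes at the bottom have medians from 4.47 to 4.95, and the highest single peak, at 7.56, is in Arid5b.

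The CCT3-2 list held the same genes with 1 exception. Of the 25 genes, 24 also had 20 or more CCT3-2 peaks, a limit met by 86 of 1607 symbols in that list (5.35%). These 24 were 96.0% of the 25 genes and 34.8% of the 69 genes that the same rule gave in the CCT3-2 list. The 24 genes had a median of 1.63 times as many peaks in CCT3-2 as in CCT3 (1.27 in Irs1 to 2.90 in Zbed6). Across the 24 the Spearman correlation of the peak numbers was 0.818, or 0.744 with Ulbp1, and both lists come from samples with the same library name. Of the 628 CCT3 peaks, 574 (91.4%, 88.9 to 93.3%) overlapped a CCT3-2 peak by at least 1 base, against 90.4% (89.6 to 91.3%) of the other inside peaks and 90.6% of all inside peaks. In 10 genes every peak was overlapped. Over the 574 overlapping pairs the median difference in log2 fold, CCT3-2 minus CCT3, was 0.01.

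The exception was Ulbp1. Its 25 CCT3 peaks had no overlapping CCT3-2 peak, and the CCT3-2 list used here had no peak within its listed span. Of 348 symbols with 5 or more CCT3 peaks, 7 (2.01%, 0.978 to 4.09%) had no overlapped peak, namely Ulbp1, Pot1b, Trerf1, Slfn8, Pwwp2b, Lats1 and Kif11. Whether the CCT3-2 list used here is complete at these 7 genes is not known, so a count of 0 does not show that peaks were absent. Without Ulbp1, 95.2% of the peaks in the set were overlapped, and introns held 25.9% (22.5 to 29.5%). In the CCT3-2 list the 24 genes had 48.2% of their 1032 peaks in other exons, 23.1% in introns, 15.7% in 3′ UTRs, 2.42% in 5′ UTRs and 10.7% in the promoter class. The other 7990 inside peaks of that list had 38.5% in other exons, 27.8% in introns, 11.7% in 3′ UTRs, 1.14% in 5′ UTRs and 20.9% in the promoter class. For other exons the Wilson intervals were 45.1 to 51.2% in the 24 genes and 37.4 to 39.5% in the other genes. The intervals did not overlap for any of these 5 classes. They cover counting error only, and peaks of the same gene are not independent, so this is no test of a difference. In the CCT3 list the promoter class held only 0.16% of the peaks in the 25 genes and 0.11% of the other inside peaks. Class shares are therefore not like for like between the lists, since a larger promoter class lowers the rest. Why the promoter share differs was not tested. Apart from the 34 in Pcdh15, all CCT3-2 peaks listed in the set were on the strand of their gene, and over all CCT3-2 peaks inside a listed gene 2.90% were on the opposite strand.

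PABPC1, the cytoplasmic poly(A)-binding protein, had few peaks in these genes. A PABPC1 peak inside the listed gene was found for 3 of the 25 (12.0%, 4.17 to 29.96%), near the 13.9% of all 1221 symbols with a CCT3 peak. They were Filip1l with 2 peaks, of up to 5.68 in log2 fold, Rbm15 with 1 at 3.92 and Epm2aip1 with 1 at 3.41. The Filip1l peaks were on the minus strand, opposite to Filip1l and on the strand of Cmss1, which overlaps it. By position, the spans of Dync2h1 and Ergic1 also held PABPC1 peaks, 3 and 5 of them, all in 3′ UTRs, and the 5 in Ergic1 were listed under its neighbour Atp6v0e. None of the 628 CCT3 peaks overlapped a PABPC1 peak. No such count is given for the other CCT3 peaks, so this does not set the 25 genes apart.

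The 25 genes spanned many functions, and 3 of them belonged to the 9 functional lists examined. Over all 1221 symbols with a CCT3 peak, 2.05% were in the set, and no test of the lists was made. Of 52 chromatin and transcription regulators, 22 had a CCT3 peak and 2, Ash1l and Arid5b, were in the set. Of 21 Wnt and β-catenin signalling genes, 3 had a CCT3 peak (Amer1, Bcl9 and Axin1) and Amer1 was in the set. No gene of the set came from the 24 DNA repair genes, of which 6 had a CCT3 peak, the 17 mitosis and centrosome genes (4), the 20 ubiquitin ligases and deubiquitinases (4) or the 25 nuclear RNA-binding and splicing genes (14). The same held for the 22 cytoskeletal linkers and scaffolds (9), the 19 long noncoding RNAs (5) and the 22 genes with very long introns (1), lists that include the left-out genes Dst, Tug1 and Wwox. Outside the lists, the set holds genes of innate immunity (Trim56, Ulbp1), ubiquitin ligases (Trim56, Fem1a) and DNA recombination (Spidr, Rmi2). It also holds genes of transcription or silencing (Zbed6, Zfhx4, Resf1), m6A methylation (Rbm15) and microtubules, centrosomes or cilia (Katnal1, Cep57l1, Luzp1, Dync2h1). These groups were named after the genes were known. Of these genes, Katnal1 and Rmi2 had no peak in their own RefSeq span, Dync2h1 had 6 of 22 there and Trim56 16 of 24. The exon labels in Zbed6 named Zc3h11a. Ulbp1 had no peak in the CCT3-2 list used here. These groups therefore describe listed names, and the peaks may belong to other transcripts.

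Which genes pass the limit depended on how a peak is given a gene. The listed gene of a row need not hold the peak, and 48.1% of CCT3 peaks lay inside it. Assigning each peak to the RefSeq gene whose span holds it, and to the gene of the exon or intron label where spans overlap, gave 72 genes at 20 or more peaks, 21 of the 25 among them. Zbed6, Trim56, Katnal1 and Rmi2 fell below the limit, with 6, 16, 0 and 0 peaks. Dync2h1 stayed above it with 21 peaks, but only 6 of its 22 peaks described above lay in its RefSeq span. Most of those 21 are therefore other peaks. The 51 genes added included Slfn9 with 38, Samd9l with 37 and the recombination gene Brca2 with 36, and no inside peak was listed under Brca2 by name. Of the 628 peaks, 563 (89.6%) lay in the RefSeq span of their listed gene, wholly so in 20 of the 25 genes.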

How the data were processed

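The samples were eCLIP immunoprecipitations of CCT3 (2), PABPC1 (1) and their inputs (1 each) from GC-2spd(ts) cells. The 3 peak lists used were CCT3, CCT3-2 and PABPC1. The submitters' processing notes name bcl2fastq 2.20 and mm10. For the aligner, peak caller, handling of duplicates and annotation tool, nothing is given in the sources used here. Per the file headers, the CCT3 table gives −log10 p and log2 fold as the authors' values, taken as immunoprecipitation over input, and the unnamed columns of the deposited CCT3-2 and PABPC1 tables were read as the same log2 and −log10 quantities from their ranges. The CCT3 and PABPC1 lists start at 3 for both values, which 83.7% of CCT3-2 peaks met.

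Here peaks were counted per listed symbol inside the listed gene, classed by the deposited annotation, joined into runs at gaps up to 500 bases, and overlapped at 1 base regardless of strand (with numpy, where the design named bedtools). Exon coordinates were not used here, so an exon's length is not given, only the stretch its peaks span. Shares have Wilson 95% intervals (Python 3.11.15, numpy 2.4.6, pandas 2.3.3, scipy 1.17.1, matplotlib 3.10.9). No test across samples was made, since each protein has 1 library name. The genes and lists were chosen with earlier results of these data known. By the naming rule, all members of a set this small are named. Counting, runs and overlaps were tested on simulated data. Alternatives were other peak thresholds and minimums, merging within 10 bases, RefSeq spans, covered bases, equal gene weights, 50% reciprocal overlap and the CCT3-2 list.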

Additional observations from a re-analysis of the deposited data

Results flagged for a closer look

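The strand given for CCT3-2 peaks was used for description only, and it put all 34 CCT3-2 peaks of Pcdh15 on the strand opposite to the gene. In the other 23 genes of the set with CCT3-2 peaks, none was opposite. The CCT3 table gives no strand, and to which transcript these peaks belong was not tested.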

How the results depend on the processing

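Of 51 alternatives tried over 10 results, 30 left a share or median inside its main interval, or a count within 1.5 times its main value. The number of genes at 20 or more peaks, 25, was 69 without the CCT3 sample (CCT3-2 list), 57 with that list at the thresholds of the CCT3 list, 68 counting all peaks listed under a symbol, and 72 by RefSeq span. It was 5 at a log2 fold of at least 4 and a −log10 p of at least 5 (Amer1, Zbed6, Rbm15, Arid5b and Spidr), 49 at a minimum of 15 peaks and 12 at 25. The intron share was 23.1% with the CCT3-2 list, which has no peak in Ulbp1, 33.7% at a minimum of 15 and 22.9% at 25, where the 3′ UTR share was 20.1%. At 80% of the peaks in place of 50%, 4 genes had most peaks in 1 exon and 4 in introns. With exon and UTR peaks of 1 run counted together, at over 50% of the peaks, the 1-exon count was 14. The overlap with CCT3-2 was 75% at 50% reciprocal overlap, 86.7% at the stricter threshold in both lists and 95.2% without Ulbp1. Genes with a PABPC1 peak were 1 at the stricter threshold and 5 by position, and the median log2 fold was 4.80 at that threshold, which removes low folds. The median longest run was 1520 bases with gaps up to 250 bases. Chosen after seeing the data were the CCT3-2 list at the CCT3 thresholds, exon and UTR runs, leaving out Ulbp1, PABPC1 peaks by position, leaving out genes with peaks outside their RefSeq span, and run gaps of 250 and 1000 bases. Apart from what each setting removes, the cause was not tested. No paired analysis was possible because the values come from no test across samples that a replicate block could enter; the overlapping peaks of both CCT3 lists are pairs of peaks, not of samples.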
